A study of Mus musculus with 12 samples.

Results

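A set of 10 members of the tumour necrosis factor (TNF) superfamily that T cells carry on their surface was followed through this series: 5 receptors (Tnfrsf9, Tnfrsf4, Tnfrsf18, Tnfrsf1b and Cd27) and 5 ligands (Tnfsf8, Tnfsf11, Tnfsf14, Tnfsf10 and Fasl). They were chosen by gene symbol, and all 10 were found among the 13625 symbols present in both deposited count tables. CD8+ T cells from the spleen of OT-I mice, whose transgenic T cell receptor recognises a peptide of ovalbumin, were expanded with antibodies to CD3e and CD28 and with IL-2. During that expansion ATRA cells received 5 ng/mL all-trans retinoic acid, a vitamin A metabolite that binds nuclear receptors, and CTRL cells received an equal volume of DMSO. Cells of all 4 groups were then kept for 5 further days and co-cultured for 72 h at 1% oxygen, with nothing added, with GL261 cells, a mouse glioma line made to express ovalbumin. Live CD45.2+ cells were sorted either at that point (CTRL and ATRA after co-culture) or after 24 h more with the CD3e antibody (CTRL and ATRA after restimulation). Each of the 4 groups held 3 libraries of total RNA. The labels give no age of the mice. They leave unstated whether the 3 libraries of a group stem from different mice or cultures, so the p-values cover the spread between libraries, which may be technical.

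Receptors of this superfamily are trimers at the cell surface that bind trimeric ligands on neighbouring cells. Tnfrsf9 (4-1BB, also called CD137), Tnfrsf4 (OX40), Tnfrsf18 (GITR), Tnfrsf1b (TNFR2) and Cd27 recruit TRAF adaptor proteins and feed the NF-kB pathways that sustain the division and survival of activated T cells. Tnfsf8, Tnfsf11 and Tnfsf14 encode the ligands CD30L, RANKL and LIGHT, which activated T cells display to other cells. Tnfsf10 and Fasl encode TRAIL and Fas ligand, whose receptors include some with death domains.

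The genes were also viewed through the promoter sequences that RefSeq gives for the mouse build GRCm38.p6 (300 bases, from 250 before to 50 after the start of the gene, 5′ to 3′ on the strand of the gene). All 10 genes matched, with 11 promoters, because Tnfrsf9 has a pair of start sites. The 4 printed here were picked because they belong to the 3 receptors that were higher in ATRA cells after restimulation and to the 1 ligand, of the 3 higher there, whose window held a match. For Tnfrsf9 only the window of the second start site, the one with matches, is printed. Capitals mark matches, on either strand, to the NF-kB consensus or to TGANTCA, the AP-1 element, both being targets of signals from the T cell receptor.
Tnfrsf9 (second start site, chr4:150927749-150928048, plus strand): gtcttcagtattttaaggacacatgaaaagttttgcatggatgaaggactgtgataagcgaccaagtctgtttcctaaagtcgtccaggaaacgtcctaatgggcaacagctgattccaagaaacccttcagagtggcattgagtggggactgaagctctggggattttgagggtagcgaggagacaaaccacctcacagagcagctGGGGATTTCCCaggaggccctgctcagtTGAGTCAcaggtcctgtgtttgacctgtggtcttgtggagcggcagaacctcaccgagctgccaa
Tnfrsf4 (chr4:156013445-156013744, plus strand): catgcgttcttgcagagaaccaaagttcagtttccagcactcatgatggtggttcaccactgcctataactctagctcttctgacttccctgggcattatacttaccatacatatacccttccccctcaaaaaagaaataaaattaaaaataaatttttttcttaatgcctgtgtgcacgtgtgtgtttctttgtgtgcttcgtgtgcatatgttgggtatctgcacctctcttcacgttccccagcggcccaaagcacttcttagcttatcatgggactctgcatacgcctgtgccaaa
Tnfrsf18 (chr4:156026072-156026371, plus strand): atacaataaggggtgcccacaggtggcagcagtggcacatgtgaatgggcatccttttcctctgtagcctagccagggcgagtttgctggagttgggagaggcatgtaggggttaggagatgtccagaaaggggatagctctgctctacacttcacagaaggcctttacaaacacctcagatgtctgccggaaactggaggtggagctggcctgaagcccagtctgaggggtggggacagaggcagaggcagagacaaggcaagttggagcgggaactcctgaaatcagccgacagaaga
Tnfsf14 (chr17:57194132-57194431, minus strand): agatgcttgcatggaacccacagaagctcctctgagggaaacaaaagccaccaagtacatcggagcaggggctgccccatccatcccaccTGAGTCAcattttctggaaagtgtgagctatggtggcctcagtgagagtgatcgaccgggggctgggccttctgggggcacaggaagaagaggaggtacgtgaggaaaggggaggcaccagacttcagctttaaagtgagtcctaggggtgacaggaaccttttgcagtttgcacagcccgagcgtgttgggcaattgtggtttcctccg

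The Tnfrsf9 sequence held 2 overlapping NF-kB consensus matches, which began 43 and 42 bases before the start site, and TGAGTCA 15 bases before it. In the Tnfsf14 sequence, TGAGTCA began 160 bases before the start. Neither motif was found at the first start site of Tnfrsf9, in the windows of Tnfrsf4 and Tnfrsf18, or in those of the other members. The NF-kB consensus thus occurred at 1 of the 10 genes and TGANTCA at 2, while they occurred in 4.51% and 7.81% of all 32851 RefSeq promoter windows of this length. The core hexamer of retinoic acid receptor sites, AGGTCA, was found on the opposite strand 5 bases after the start in Tnfrsf9 (second start site) and in Tnfsf10, and in 16.3% of all windows. In the RefSeq gene order, Tnfrsf4 and Tnfrsf18 are neighbours on chromosome 4, which also carries Tnfrsf9, Tnfrsf1b and Tnfsf8, and Tnfsf14 lies next to Cd70 on chromosome 17.

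Levels are given as CPM, which are counts scaled, with TMM factors, to the library total over the genes of both count tables. They depend on transcript length, so they compare a gene between libraries but not genes with each other. Total counts were 23558244 to 26111497 per library after co-culture and 16288111 to 20115836 after restimulation. Against the counts in genes of both tables, before the TMM factors, 3 counts corresponded to 0.119 to 0.192 CPM, a floor for counting error only. Across genes, CTRL replicate 1 and ATRA replicate 3 after co-culture stood apart from the other libraries of their groups. Their log CPM correlated with the others of the group at 0.978 and 0.980 and at 0.948 and 0.962, against 0.994 and 0.990 between the remaining libraries. The CTRL and ATRA libraries of a state with the same replicate number share a batch, and the states come from different batch sets, so state, batch set and count table cannot be told apart.

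After co-culture, 2 of the 10 genes were higher in ATRA cells, 5 were lower and 3 did not pass the test (edgeR's quasi-likelihood test, Benjamini-Hochberg adjusted p under 0.05). The receptors Tnfrsf18 and Tnfrsf4 rose, and Cd27 and the ligands Tnfsf11, Tnfsf14, Tnfsf10 and Fasl fell. Over all 12111 genes tested, 18.1% were higher, 15.5% lower and 33.6% called in either direction. No library of 1 group lay within the range of the other for 7 of the 10 members and for 56.8% of all genes. The median log2 fold change of ATRA over CTRL was -0.78 over the members and 0.01 over all genes. Without the 2 libraries that stood apart, 3 members were higher and 5 lower, and 65.1% of all genes were called. Leaving out 1 library at a time gave 1 to 2 members higher and 2 to 5 lower.

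After restimulation, 6 of the 10 genes were higher in ATRA cells, 2 were lower and 2 did not pass the test. Tnfrsf9, Tnfrsf4, Tnfrsf18, Tnfsf8, Tnfsf11 and Tnfsf14 rose, and Tnfsf10 and Fasl fell. Over all 12783 genes tested, 31.8% were higher, 30.8% lower and 62.6% called in either direction. The groups did not overlap for 8 of the 10 members and for 70.2% of all genes. The median log2 fold change was 1.61 over the members and 0.02 over all genes.

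**Figure D1:**
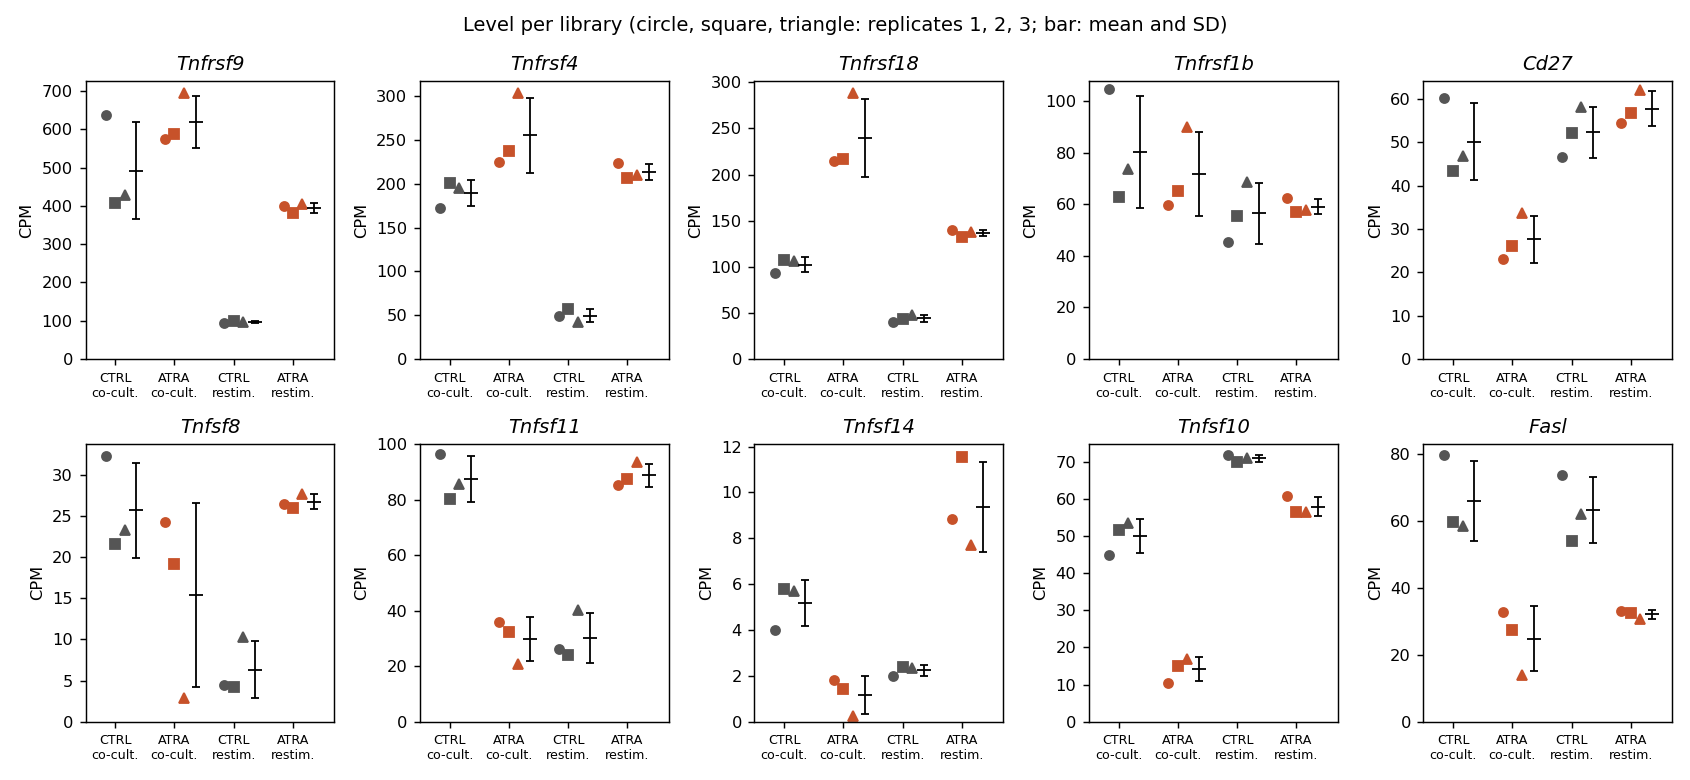
Level of each of the 10 genes in every library (CPM, linear axes) by group, 1 point per library, with the group mean and SD beside the points. After restimulation the 3 ATRA points lie above the 3 CTRL points for Tnfrsf9, Tnfrsf4, Tnfrsf18, Tnfsf8, Tnfsf11 and Tnfsf14 and below them for Tnfsf10 and Fasl.

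Of the costimulatory receptors, Tnfrsf9 stood at 639, 409 and 429 CPM in CTRL and 574, 588 and 696 CPM in ATRA libraries after co-culture (replicates 1 to 3). It stood at 93.2, 98.1 and 97.6 CPM in CTRL and 399, 381 and 406 CPM in ATRA libraries after restimulation. The co-cultured groups overlapped through CTRL replicate 1, whereas all restimulated ATRA libraries lay far above the restimulated CTRL libraries. After restimulation the difference was 4.15-fold (log2 fold change 2.05, SE 0.06, adjusted p = 2.2e-10). After co-culture it did not pass the test (log2 fold change 0.35, SE 0.19, adjusted p = 0.192). That result rested on CTRL replicate 1, without which the log2 fold change was 0.58 and the gene was called (adjusted p = 0.0230).

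Tnfrsf4 stood at 173, 200.3 and 196 CPM in CTRL and 224, 237 and 304 CPM in ATRA libraries after co-culture. After restimulation it stood at 49.1, 57.6 and 42.3 CPM in CTRL and 224, 206 and 210.3 CPM in ATRA libraries. The groups overlapped in neither state, but after co-culture the gap between the highest CTRL and the lowest ATRA library was narrow. The difference was 1.36-fold after co-culture (log2 fold change 0.44, SE 0.13, adjusted p = 0.0442) and 4.35-fold after restimulation (2.12, SE 0.10, adjusted p = 6.2e-09). The co-culture call did not survive the replicate block (adjusted p = 0.0607) or the omission of CTRL replicate 1, 2 or 3 or ATRA replicate 2 (adjusted p = 0.105, 0.109, 0.117 and 0.0878).

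Tnfrsf18, the neighbour of Tnfrsf4, stood at 93.0, 108 and 106 CPM in CTRL and 214, 217 and 289 CPM in ATRA libraries after co-culture. It stood at 40.2, 43.8 and 48.0 CPM in CTRL and 139, 133 and 137 CPM in ATRA libraries after restimulation. It was the only member higher in ATRA cells in both states under every alternative tried, and no libraries of the groups overlapped. The ATRA level was 2.37-fold higher after co-culture (log2 fold change 1.24, SE 0.14, adjusted p = 0.00197) and 3.14-fold higher after restimulation (1.65, SE 0.08, adjusted p = 8.7e-09).

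Tnfrsf1b, the second TNF receptor, gave no call in either state. It stood at 105, 62.9 and 73.5 CPM in CTRL and 59.8, 65.2 and 90.0 CPM in ATRA libraries after co-culture, and at 45.3, 55.3 and 68.7 CPM and 62.6, 56.9 and 57.8 CPM after restimulation. All 4 groups overlapped with their neighbours in level. The log2 fold change was -0.15 (SE 0.23, adjusted p = 0.623) after co-culture and 0.08 (SE 0.14, adjusted p = 0.632) after restimulation, and its sign changed without replicate 1 of the CTRL group in either state (0.08 and -0.06).

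Cd27, the receptor for CD70, stood at 60.2, 43.4 and 46.8 CPM in CTRL and 23.1, 26.1 and 33.6 CPM in ATRA libraries after co-culture. It stood at 46.6, 52.2 and 58.2 CPM in CTRL and 54.5, 56.8 and 62.2 CPM in ATRA libraries after restimulation. The 3 co-cultured ATRA libraries lay below all 9 others, and the other 3 groups overlapped. It fell in ATRA cells after co-culture (log2 fold change -0.85, SE 0.18, adjusted p = 0.0159), a call lost without CTRL replicate 3 (adjusted p = 0.0536) or ATRA replicate 2 (0.0590). After restimulation the log2 fold change was 0.16 (SE 0.11, adjusted p = 0.216).

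**Figure D2:**
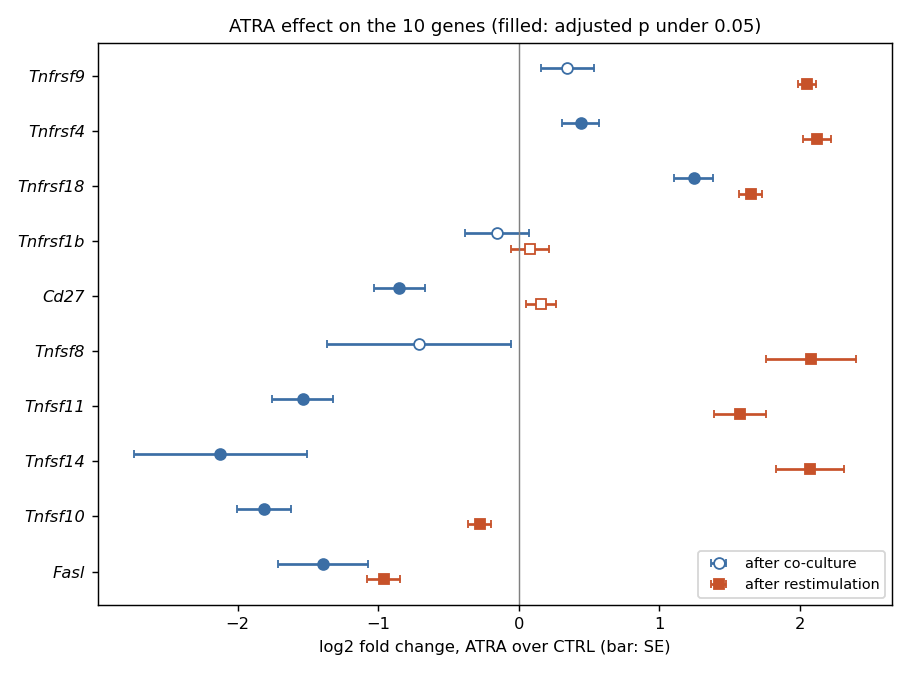
Log2 fold change of ATRA over CTRL cells for the 10 genes after co-culture and after restimulation (bars: SE; filled points: adjusted p under 0.05). Tnfsf11 and Tnfsf14 lie at -1.54 and -2.12 after co-culture and at 1.57 and 2.07 after restimulation, while Fasl lies below 0 and Tnfrsf18 above 0 in both states.

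Among the ligands, Tnfsf11, whose product RANKL acts on the receptor RANK of dendritic cells and osteoclast precursors, moved in opposite directions in the 2 states. It stood at 96.3, 80.3 and 85.6 CPM in CTRL and 36.0, 32.4 and 20.9 CPM in ATRA libraries after co-culture. After restimulation it stood at 26.1, 23.9 and 40.4 CPM in CTRL and 85.4, 87.5 and 93.4 CPM in ATRA libraries. The high groups were thus co-cultured CTRL and restimulated ATRA, which overlapped each other, and the low groups also overlapped each other. The ATRA level was 2.90-fold lower after co-culture (log2 fold change -1.54, SE 0.22, adjusted p = 0.00414) and 2.97-fold higher after restimulation (1.57, SE 0.18, adjusted p = 7.0e-05).

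Tnfsf14, whose product LIGHT binds HVEM and the lymphotoxin beta receptor, followed the same order at a lower count. It stood at 4.00, 5.78 and 5.72 CPM in CTRL and 1.82, 1.420 and 0.234 CPM in ATRA libraries after co-culture, the last resting on 5 counts. It stood at 1.98, 2.40 and 2.36 CPM in CTRL and 8.84, 11.6 and 7.71 CPM in ATRA libraries after restimulation. No libraries overlapped between any neighbouring groups. The log2 fold change was -2.12 (SE 0.62, adjusted p = 0.0389) after co-culture and 2.07 (SE 0.24, adjusted p = 1.1e-05) after restimulation. The co-culture call did not survive the replicate block (log2 fold change -2.32, adjusted p = 0.0634) or the omission of CTRL replicate 1, 2 or 3 or ATRA replicate 2 (adjusted p = 0.0698, 0.115, 0.117 and 0.0891). Without ATRA replicate 3 the log2 fold change was -1.65 (adjusted p = 0.00403).

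Tnfsf8, the ligand of CD30, stood at 32.3, 21.6 and 23.3 CPM in CTRL and 24.3, 19.1 and 2.90 CPM in ATRA libraries after co-culture. It stood at 4.46, 4.25 and 10.3 CPM in CTRL and 26.5, 25.9 and 27.7 CPM in ATRA libraries after restimulation. The low ATRA value after co-culture came from replicate 3 alone (62 counts, against 588 and 431 in replicates 1 and 2), and the other libraries of that state overlapped. The restimulated ATRA libraries lay above every restimulated CTRL library, at 4.23-fold the level (log2 fold change 2.08, SE 0.32, adjusted p = 0.000702). Without CTRL replicate 3 of that state the log2 fold change was 2.63 (adjusted p = 6.3e-08). After co-culture the log2 fold change was -0.71 (SE 0.66, adjusted p = 0.422), and -0.01 (adjusted p = 0.938) without the 2 libraries that stood apart.

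The death ligand Tnfsf10 stood at 44.9, 51.7 and 53.5 CPM in CTRL and 10.5, 14.9 and 16.9 CPM in ATRA libraries after co-culture. It stood at 71.7, 70.0 and 70.9 CPM in CTRL and 60.8, 56.4 and 56.5 CPM in ATRA libraries after restimulation. The groups overlapped in neither state, and the gap was wide after co-culture and narrow after restimulation. The ATRA level was 3.51-fold lower after co-culture (log2 fold change -1.81, SE 0.19, adjusted p = 0.00161) and 1.21-fold lower after restimulation (-0.28, SE 0.08, adjusted p = 0.0104). The second call was lost when all 12 libraries were fitted together (adjusted p = 0.113), without ATRA replicate 2 or 3 (0.0523 and 0.0505) and in limma's test of log2(TPM + 1) (0.287).

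Fasl stood at 79.7, 59.6 and 58.4 CPM in CTRL and 32.8, 27.4 and 14.05 CPM in ATRA libraries after co-culture. It stood at 73.6, 54.0 and 61.9 CPM in CTRL and 33.1, 32.5 and 30.6 CPM in ATRA libraries after restimulation. In both states every ATRA library lay below every CTRL library, and the ATRA groups of the 2 states overlapped, as did the CTRL groups. The ATRA level was 2.63-fold lower after co-culture (log2 fold change -1.39, SE 0.32, adjusted p = 0.0189) and 1.95-fold lower after restimulation (-0.96, SE 0.12, adjusted p = 1.9e-05). The co-culture call was lost without CTRL replicate 1, 2 or 3 or ATRA replicate 2 (adjusted p = 0.0600, 0.0544, 0.0562 and 0.0520).

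The difference between the ATRA effects of the 2 states was tested with an interaction term in a fit of the 12 libraries. The effect was more positive after restimulation for 7 of the 10 genes and more negative for none, while 23.6% of the 12364 genes tested were called more positive, 25.5% more negative and 49.2% in either direction. The median difference was 1.60 on the log2 scale over the members and -0.07 over all genes. Tnfsf14 differed by 4.20 (SE 0.64, adjusted p = 0.000209), Tnfsf11 by 3.11 (SE 0.30, adjusted p = 7.7e-06) and Tnfsf8 by 2.80 (SE 0.80, adjusted p = 0.0126). For Tnfsf8 the difference was 2.10 (adjusted p = 0.00149) without the 2 libraries that stood apart. Among the receptors the difference was 1.70 for Tnfrsf9 (adjusted p = 3.8e-05), 1.67 for Tnfrsf4 (adjusted p = 2.0e-05) and 1.00 for Cd27 (adjusted p = 0.00295), and it was 1.53 for Tnfsf10 (adjusted p = 8.0e-05). For Tnfrsf18 the difference of 0.40 did not pass the test (SE 0.17, adjusted p = 0.0728). It was called without the 2 libraries that stood apart (0.62, adjusted p = 0.000137), without CTRL replicate 1 after co-culture (adjusted p = 0.0489) and without ATRA replicate 3 after co-culture (0.55, adjusted p = 0.00133). Fasl (0.43, SE 0.35, adjusted p = 0.326) and Tnfrsf1b (0.23, SE 0.29, adjusted p = 0.548) gave no call.

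The same values can be read as the change from co-culture to restimulation within each treatment, with the limit that state and batch set cannot be told apart. In CTRL cells 5 of the 10 genes were lower after restimulation, 1 was higher and 4 did not pass the test, against 16.6% lower, 15.9% higher and 32.5% called in either direction among all genes. The groups did not overlap for 7 of the 10 members and for 51.3% of all genes. Tnfrsf9 fell from 492 ± 127 to 96.3 ± 2.69 CPM (SD, n = 3; edgeR's log2 fold change -2.35, adjusted p = 5.8e-07) and Tnfrsf4 from 190 ± 14.7 to 49.6 ± 7.69 CPM (-1.93, adjusted p = 1.0e-06). Tnfrsf18 (-1.21, adjusted p = 1.9e-05), Tnfsf11 (-1.53, adjusted p = 0.000236) and Tnfsf8 (-2.01, adjusted p = 0.0206) also fell, and Tnfsf10 rose (0.51, adjusted p = 0.0182). The Tnfsf8 call was lost without CTRL replicate 1 after co-culture (adjusted p = 0.0510) and without CTRL replicate 1 or 2 after restimulation (0.0829 and 0.0786). The Tnfsf10 call was lost without replicate 1 of either CTRL group (0.0644 after co-culture and 0.0521 after restimulation). Tnfsf14 (-1.20, adjusted p = 0.0560) was not called, but it was called without the 2 libraries that stood apart (adjusted p = 0.000253), without ATRA replicate 1 or 3 after co-culture (0.0364 and 0.00099) and by DESeq2 (0.0234). Tnfrsf1b (-0.51, adjusted p = 0.0837) was called without CTRL replicate 2 or ATRA replicate 3 after co-culture (0.0457 and 0.0437) and without CTRL replicate 3 after restimulation (0.0470). Cd27 (0.07, adjusted p = 0.777) and Fasl (-0.06, adjusted p = 0.878) gave no call.

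In ATRA cells 4 of the 10 genes were higher after restimulation, 2 were lower and 4 did not pass the test, against 29.8% higher, 31.5% lower and 61.3% in either direction among all genes. The groups did not overlap for 8 of the 10 members and for 67.0% of all genes. Tnfsf10 rose from 14.1 ± 3.29 to 57.9 ± 2.52 CPM (SD, n = 3; log2 fold change 2.04, edgeR adjusted p = 4.5e-07) and Cd27 from 27.6 ± 5.43 to 57.8 ± 3.96 CPM (1.07, adjusted p = 0.000114). Tnfsf14 (3.00, adjusted p = 0.000149) and Tnfsf11 (1.58, adjusted p = 5.6e-05) rose as well. Tnfrsf9 fell from 620 ± 66.8 to 395 ± 13.1 CPM (-0.65, adjusted p = 0.00212), and Tnfrsf18 from 240.1 ± 42.4 to 136 ± 3.45 CPM (-0.81, adjusted p = 0.000110). Tnfrsf4 stood at 255 ± 42.8 and 213 ± 9.22 CPM (-0.26, adjusted p = 0.107). Tnfrsf4 and Fasl (0.38, adjusted p = 0.207) were called without ATRA replicate 1 after co-culture (0.0456 and 0.0468). Tnfsf8 (0.79, adjusted p = 0.230) and Tnfrsf1b (-0.28, adjusted p = 0.266) gave no call.

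**Figure D3:**
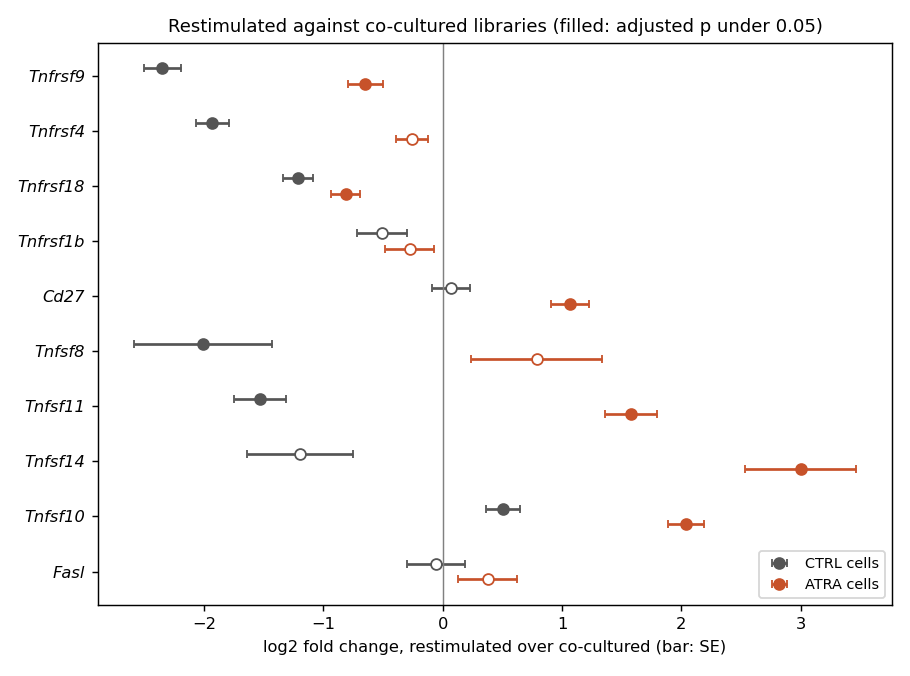
Log2 fold change of restimulated over co-cultured libraries for the 10 genes in CTRL and ATRA cells (bars: SE; filled points: adjusted p under 0.05). For Tnfrsf9 and Tnfrsf4 the CTRL points lie at -2.35 and -1.93 and the ATRA points at -0.65 and -0.26, and for Tnfsf11 the points lie on opposite sides of 0.

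Ordered by mean level over the 4 groups, Tnfrsf4 and Tnfrsf18 shared 1 order: ATRA after co-culture, ATRA after restimulation, CTRL after co-culture and CTRL after restimulation, with no overlap between neighbours. Tnfrsf9 was also highest in co-cultured ATRA libraries, which overlapped co-cultured CTRL libraries, and lowest in restimulated CTRL libraries, which overlapped none. Tnfsf11 and Tnfsf14 ran in another order, from restimulated ATRA through co-cultured CTRL and restimulated CTRL to co-cultured ATRA. Fasl and Tnfsf10 placed both or 1 of the CTRL groups first: Fasl was highest in co-cultured CTRL libraries, which overlapped restimulated CTRL libraries, and Tnfsf10 in restimulated CTRL libraries, with no overlap between its neighbouring groups.

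Levels per transcript length were given only for the restimulated state, as the deposited TPM (abundance per transcript length within a library), which can be compared between genes. In CTRL cells Fasl had the highest mean among the 10 genes, at 218 ± 55.7 TPM (SD, n = 3), and Tnfrsf9 the next, at 157 ± 4.93 TPM. In ATRA cells Tnfrsf9 came first, at 662 ± 12.3 TPM, followed by Tnfrsf4 at 300.2 ± 10.4 TPM and Tnfrsf18 at 199 ± 3.97 TPM, and Fasl came 4th, at 105 ± 9.84 TPM. Tnfrsf4 and Tnfrsf18 had stood at 68.1 ± 6.07 and 62.4 ± 9.58 TPM in CTRL cells, where their libraries and those of Cd27 (71.9 ± 11.3 TPM) overlapped. Tnfsf11 stood at 27.4 ± 7.66 and 81.1 ± 3.17 TPM in CTRL and ATRA cells, Tnfsf10 at 40.2 ± 6.16 and 35.4 ± 2.13 TPM and Tnfrsf1b at 19.2 ± 4.27 and 20.9 ± 1.101 TPM. The lowest levels were those of Tnfsf8 (2.51 ± 1.28 and 10.5 ± 0.322 TPM) and Tnfsf14 (1.416 ± 0.192 and 6.45 ± 1.35 TPM).

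**Figure D4:**
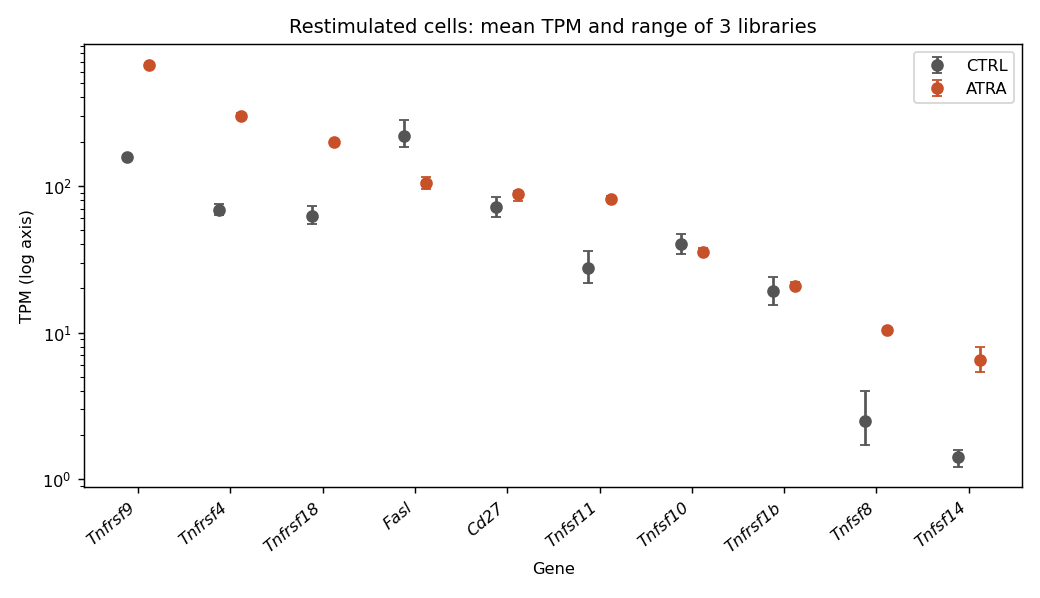
Deposited TPM of the 10 genes in the restimulated libraries (log axis), with points at the mean and bars over the range of 3 libraries. Tnfrsf9, Tnfrsf4 and Tnfrsf18 lead in ATRA cells at means of 662, 300.2 and 199 TPM, and Fasl leads in CTRL cells at 218 TPM.

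A fixed list of 13 ligands and receptors that bind the members, not a complete one, was taken as partners. After co-culture 12 were tested, of which 3 were higher in ATRA cells and 1 lower, and their median log2 fold change was -0.25. The share called, 4 of 12, was near the 33.6% of all genes. Without the 2 libraries that stood apart 4 were higher and 4 lower, a share near the 65.1% of all genes called there. Tnfrsf8, which encodes CD30, the receptor of the Tnfsf8 product, rose from 120.3 to 395 CPM (log2 fold change 1.73, adjusted p = 0.00787), and Fas, the receptor of Fas ligand, rose from 8.15 to 21.3 CPM (1.40, adjusted p = 0.0112). Tnfrsf14, which encodes HVEM, rose from 14.7 to 24.0 CPM (0.73, adjusted p = 0.0258). Cd70, the ligand of CD27 and the gene next to Tnfsf14, fell from 3.77 to 0.502 CPM (-2.86, adjusted p = 0.0138). Several of these calls turned on 1 library: Fas was lost without CTRL replicate 2 or 3 (adjusted p = 0.0516 and 0.0506), Cd70 without CTRL replicate 3 (0.0567), and Tnfrsf14 without CTRL replicate 2 or 3 or ATRA replicate 1 or 2 (0.0952, 0.103, 0.0581 and 0.0873). Leaving out CTRL replicate 2 or 3 thus left 1 partner higher, and leaving out CTRL replicate 3 left 0 lower. The ligands of 4-1BB, OX40 and TNFR2 gave no call there. Tnfsf9, which encodes 4-1BB ligand, had a log2 fold change of -0.23 (adjusted p = 0.683) and Tnfsf4, which encodes OX40 ligand, -1.30 (0.0623). Tnf and Lta, both ligands of TNFR2, had -0.67 (0.223) and -0.29 (0.779). Lta stood at 161, 480.2 and 473 CPM in CTRL and 445, 391 and 60.4 CPM in ATRA libraries. Tnfsf4 was the second partner called lower by DESeq2, in the 12-library fit and without ATRA replicate 3. Without the 2 libraries that stood apart, the partners called lower were Cd70, Lta, Tnfrsf11b and Tnfsf4.

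After restimulation 9 of the partners were tested, of which 4 were higher in ATRA cells and 1 lower, with a median log2 fold change of 0.10, against 62.6% of all genes called. The 4 higher genes were the same under every alternative tried. The count of lower genes was 2 under DESeq2's test, without the filter, in the 12-library fit, in both limma fits and without ATRA replicate 1, 2 or 3, and 3 without CTRL replicate 3, with Cd70, Tnfrsf8 or Tnfrsf11b joining Tnfsf9. Tnfrsf10b, a mouse TRAIL receptor, rose from 25.3 to 64.7 CPM (1.37, adjusted p = 2.0e-07) and Tnf from 32.9 to 66.4 CPM (1.03, adjusted p = 1.7e-06). Tnfsf4 rose from 7.17 to 16.0 CPM (1.17, adjusted p = 0.00779) and Fas from 6.35 to 11.3 CPM (0.85, adjusted p = 0.00202). The receptor Tnfrsf4 and its ligand Tnfsf4 were therefore both higher in these libraries. The receptor Tnfrsf9 and its ligand were not: Tnfsf9 fell from 16.6 to 6.12 CPM (-1.42, adjusted p = 1.2e-05), from 21.6 ± 1.56 to 8.09 ± 0.957 TPM (SD, n = 3). Tnfsf18, the ligand of GITR, had 0 counts in all 6 restimulated libraries, and its symbol is not among those of the other table, whose smallest row sum is 10. Tnfrsf8 (-0.21, adjusted p = 0.0536), Tnfrsf14 (0.10, adjusted p = 0.581) and Lta (-0.20, adjusted p = 0.233) gave no call. The effect on Tnfrsf8 was more negative after restimulation than after co-culture (difference -1.95 on the log2 scale, adjusted p = 0.000564).

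Of 23 other genes of the superfamily, outside the incomplete list of partners, 13 were tested after co-culture, with 5 higher and 0 lower in ATRA cells. The counts were 7 and 1 without the 2 libraries that stood apart, where 65.1% of all genes were called. Without CTRL replicate 2 or 3, 3 were higher. After restimulation 13 were tested, with 5 higher and 1 lower. Among all genes, 33.6% were called in either direction after co-culture and 62.6% after restimulation. Ltb, which encodes lymphotoxin beta, rose from 74.5 to 181 CPM after co-culture (1.29, adjusted p = 0.00100) and fell from 69.0 to 7.83 CPM after restimulation (-3.12, adjusted p = 4.7e-07), the opposite of Tnfsf11 and Tnfsf14. Tnfrsf26 was higher in both states (2.19, adjusted p = 0.00369, and 2.66, adjusted p = 0.00412; 3.51 without CTRL replicate 3 after restimulation). Tnfrsf22 rose from 15.5 to 62.7 CPM after restimulation (2.04, adjusted p = 1.4e-08). Tnfrsf23 stood at 1.30, 2.59 and 6.54 CPM in restimulated CTRL and 197, 193 and 203 CPM in restimulated ATRA libraries (5.82, adjusted p = 0.000454; 6.69 without CTRL replicate 3). Tnfrsf22, Tnfrsf23 and Tnfrsf26 are close copies of one another, so the division of reads between them is uncertain. Tnfrsf25, the receptor of TL1A, rose after co-culture from 0.109 to 1.09 CPM, with the CTRL mean under the floor of 3 counts per library (3.29, adjusted p = 0.00869).

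Of 16 adaptors and signal transducers used by these receptors, 0 were higher and 2 lower in ATRA cells after co-culture, and 6 were higher and 1 lower after restimulation, against 33.6% and 62.6% of all genes called in either direction. With the replicate block 1 adaptor, Traf6, was higher after co-culture, as it was with DESeq2's test and in the 12-library fit. Traf5, an adaptor of OX40, CD27 and CD30, fell from 31.6 to 12.4 CPM after co-culture (-1.33, adjusted p = 0.00414) and rose from 20.9 to 38.3 CPM after restimulation (0.89, adjusted p = 2.3e-05). Tank fell after co-culture (-0.70, adjusted p = 0.0231), a call lost without CTRL replicate 1, 2 or 3 or ATRA replicate 2 (0.0684, 0.0611, 0.0725 and 0.0570). It rose after restimulation from 108 to 136 CPM (0.34, adjusted p = 0.000709). That rise was not called in either limma fit on TPM, where 5 adaptors were higher. Without CTRL replicate 3 after restimulation, 7 were higher, with Birc3 added. The ATRA effect on Tank differed between the states by 1.04 on the log2 scale (adjusted p = 0.000465). After restimulation Cflar, which encodes the caspase-8 inhibitor c-FLIP, rose from 34.9 to 151 CPM (2.13, adjusted p = 7.8e-10) and Tnfaip3, which encodes A20, an inhibitor of NF-kB signalling, from 50.1 to 185 CPM (1.90, adjusted p = 2.1e-08). Casp8 rose from 145 to 240.5 CPM (0.75, adjusted p = 4.8e-07), Traf1, an adaptor of 4-1BB, from 58.9 to 211 CPM (1.85, adjusted p = 0.000549), and Traf4 fell from 34.4 to 24.2 CPM (-0.49, adjusted p = 0.00189). Without the 2 libraries that stood apart, 5 of the 16 were higher and 5 lower after co-culture, a share near the 65.1% of all genes called there, and without CTRL replicate 1, 2 or 3 or ATRA replicate 2 only Traf5 was lower.

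**Figure D5:**
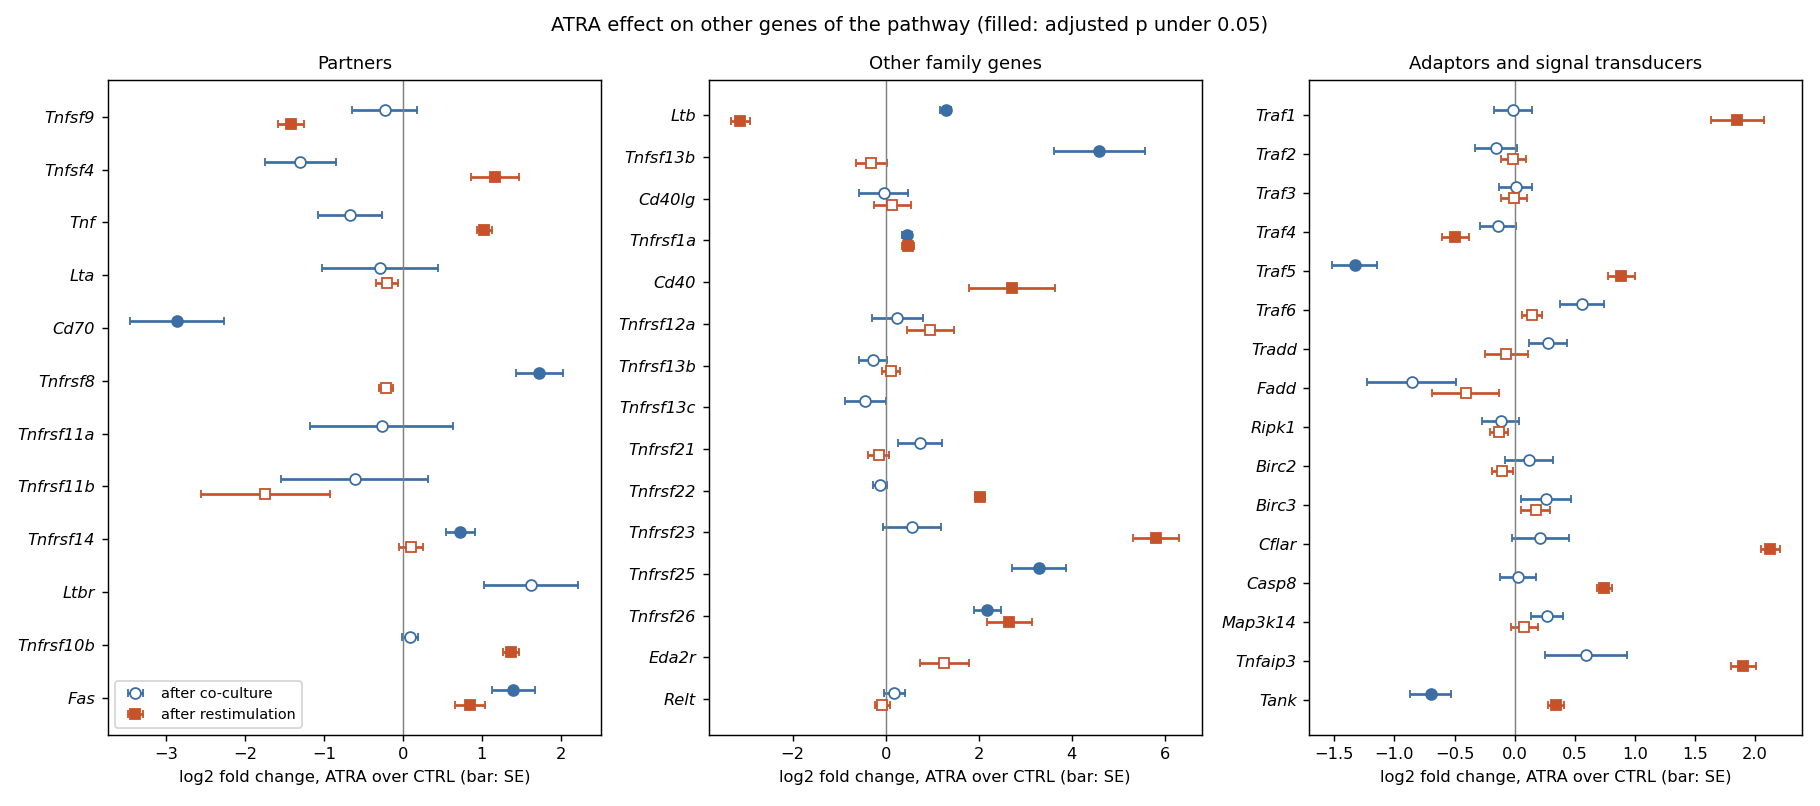
Log2 fold change of ATRA over CTRL cells after co-culture and after restimulation for the tested genes of the 3 lists: partners, other family genes, and adaptors and signal transducers (bars: SE; filled points: adjusted p under 0.05). Ltb lies at 1.29 and -3.12, Traf5 at -1.33 and 0.89, and Tnfrsf23 at 5.82 after restimulation.

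Over the 12 libraries, log2 CPM of the receptors Tnfrsf9, Tnfrsf4 and Tnfrsf18 ran closely together. Pearson's r was 0.96 between Tnfrsf9 and Tnfrsf4, 0.93 between Tnfrsf4 and Tnfrsf18 and 0.90 between Tnfrsf9 and Tnfrsf18. The other receptors did not run closely with them. With Tnfrsf9, Tnfrsf4 and Tnfrsf18 in turn, r was -0.40, -0.37 and -0.59 for Cd27 and 0.57, 0.40 and 0.37 for Tnfrsf1b. The coefficient was 0.86 between Tnfsf11 and Tnfsf14, 0.91 between Cd27 and Tnfsf10, and -0.82 between Tnfrsf18 and Fasl. These are descriptions over libraries that fall into 4 groups and share depth and scaling within a table. Among 9402 genes with a mean of at least 5 CPM, the closest to Tnfrsf9 were Pold4, Chmp5 and Mea1 (0.98 each), to Tnfrsf4 Mea1, Tes and Renbp (0.99, 0.99 and 0.98), and to Tnfrsf18 Kctd11, Ppp1r3b and Chsy1 (1.00, 0.99 and 0.99). For Tnfsf11 they were Npnt, Slc16a10 and Col5a3 (0.98, 0.97 and 0.96), for Tnfsf14 Tmem199, Ibtk and Nprl3 (0.98 each), and for Tnfsf8 Tmem230, Egr1 and Slc1a4 (0.95, 0.94 and 0.91). For Tnfsf10 they were Ugcg, Dcun1d5 and Psmd13 (0.98, 0.97 and 0.97), for Fasl Ywhaq, Il18rap and Slc25a13 (0.98, 0.97 and 0.97), and for Cd27 Psma1, Hspa4 and Flna (0.96, 0.94 and 0.93). Tnfrsf1b was least like any other gene, with Rps6ka1 and Ube2b at 0.94 and 0.87.

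The sorted cells were checked against markers. Of 7 markers of CD8 T cells, 6 were in both tables. Their summed level after co-culture was 1420 to 1915 CPM (CTRL) and 1797 to 2050 CPM (ATRA), and after restimulation 1132 to 1366 and 1131 to 1150 CPM. In the restimulated CTRL and ATRA libraries Lck had means of 312 and 153 CPM, and Cd3g of 238 and 314 CPM. Regulatory and CD4 T cells also carry OX40, GITR and TNFR2. Their markers, with 5 of 5 in both tables, had a summed level after co-culture of 72.1 to 77.4 CPM (CTRL) and 120 to 209 CPM (ATRA), and after restimulation of 36.6 to 44.2 and 31.7 to 33.2 CPM, with Zbtb7b having the highest mean in each group. Within this list Foxp3, the defining gene of regulatory T cells, stood lower in co-cultured ATRA than CTRL libraries (means of 0.300 and 1.255 CPM). The other markers had higher means in co-cultured ATRA than CTRL libraries: 1.07 and 0.467 CPM for Cd4, 14.75 and 9.12 CPM for Ikzf2, and 78.9 and 44.5 CPM for Zbtb7b. Lrrc32 stood at 114, 97.0 and 20.4 CPM in these ATRA libraries against 19.5 to 21.2 CPM in CTRL libraries. The NK cell markers (4 of 5 in both tables, Klra8 at 0 after restimulation) summed to 8.95 to 13.2 and 1.12 to 2.22 CPM after co-culture, and to 4.07 to 4.86 and 1.51 to 4.28 CPM after restimulation. Klre1 made up most of the CTRL sum after co-culture (means of 10.55 CPM in CTRL and 0.608 CPM in ATRA libraries), while Klrb1c, Klra8 and Klra9 had means under 1 CPM that were higher in ATRA libraries. The B cell markers (5 of 6) summed to 7.76 to 17.9 and 5.18 to 11.2 CPM after co-culture. After restimulation they summed to 4.18 to 5.30 and 13.5 to 13.7 CPM, and Ms4a1 was at 0 in CTRL libraries. The dendritic cell markers (3 of 6) summed to 11.5 to 16.5 and 4.35 to 8.19 CPM after co-culture and to 19.4 to 53.2 and 69.7 to 71.1 CPM after restimulation, where most came from Itgax, which activated T cells can also express. The monocyte and macrophage markers (3 of 6) summed to 13.3 to 14.5 and 21.6 to 25.7 CPM after co-culture and to 11.6 to 17.1 and 22.5 to 23.8 CPM after restimulation. The glioma-like markers (7 of 10), mostly Axl, summed to 134 to 175 and 78.2 to 93.7 CPM after co-culture and to 87.9 to 98.7 and 81.6 to 87.5 CPM after restimulation, where Sparc and Cspg4 were at 0 in ATRA libraries. They did not move one way after co-culture: the means in CTRL and ATRA libraries were 115 and 49.5 CPM for Axl, 32.05 and 0.536 CPM for Igfbp7, and 3.92 and 34.2 CPM for Loxl2. The part of these cells in the values of the 10 genes was not tested, and in bulk samples fewer cells of a type and less RNA per cell cannot be told apart.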

How the data were processed

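For each state the authors deposited a table of raw counts by gene symbol, and for the restimulated state a table of TPM as well. The submitters' processing notes name build mm39, Salmon 1.10.3, STAR 2.7.11b, DESeq2 1.42.1 and cutadapt 5.0. What each was used for, the annotation and the strand setting are not given in the sources. The count tables held 13948 rows (smallest row sum 10) and 35588 rows (16386 at 0 throughout; of 32 repeated symbols the row with the largest total was kept). The TPM column headings show the treatment only, and were treated as unnumbered replicates.

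Counts were fitted with edgeR 4.0.16 in R 4.3.3 (TMM, filterByExpr, robust quasi-likelihood test, Benjamini-Hochberg adjustment over all genes, threshold 0.05), per state for the ATRA effects and on all 12 libraries for the other comparisons. Every adjusted p given is from this test unless another is named. The procedure was also run on simulated counts with the same spread for every gene and no library set apart. Its outcome is not reported here, so it says nothing about these data. Alternatives were DESeq2 1.42.0 (size factors and test), no filter, a replicate block, a 12-library fit, limma 3.58.1 on log2(TPM + 1) and log2(TPM + 0.1), and leaving libraries out. The labels give same-numbered libraries of a state a shared batch, so the numbers pair them; their deviations from group means correlated at 0.13, -0.06 and 0.07 after co-culture and -0.03, -0.10 and 0.04 after restimulation.

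The 10 genes, lists and alternatives were chosen with earlier results of these data known. Named list genes were, per list, comparison and direction, the 3 called genes with the smallest p, plus the partners of each member. Traf1 was added after its values were seen. Some genes that these rules name are not reported here.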

Additional observations from a re-analysis of the deposited data

Results flagged for a closer look

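The ATRA effect differed between the co-cultured and the restimulated state, by the interaction test of edgeR, for 7 of the 10 genes. By the same test it differed for 49.2% of all 12364 genes. The difference of log2 fold changes was 4.195 for Tnfsf14, 3.108 for Tnfsf11, 2.797 for Tnfsf8, 1.701 for Tnfrsf9, 1.674 for Tnfrsf4, 1.532 for Tnfsf10 and 1.0 for Cd27. In each the ATRA effect was more positive after restimulation. Tnfsf10 was still lower in ATRA than in CTRL cells there (log2 fold change -0.28), and Cd27 was not called there (0.16). State, batch set and count table cannot be told apart in these values.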

How the results depend on the processing

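After co-culture, 1 member in place of 2 was higher in ATRA cells with the replicate block, and the block changed the calls of Tnfrsf4 (adjusted p = 0.0607) and Tnfsf14 (0.0634) and no other member's. Leaving out 1 library gave 1 to 2 members higher, 2 to 5 lower and 1613 to 5617 genes called, against 4071 with all. Without the 2 libraries that stood apart, 7980 genes were called. After restimulation, 1 member in place of 2 was lower in the 12-library fit and with limma on log2(TPM + 1) and on log2(TPM + 0.1), and 1 to 2 when 1 library was left out. In CTRL cells, 0 to 1 members were higher after restimulation when 1 library was left out. Signs changed only in values that were not called. With 1 library left out, the log2 fold change of Tnfrsf1b ran from -0.34 to 0.084 after co-culture, from -0.059 to 0.25 after restimulation and from -0.0044 to 0.43 for the difference between states, each time turning without replicate 1 of a CTRL group. In CTRL cells the restimulation change ran from -0.031 to 0.21 for Cd27 and from -0.18 to 0.10 for Fasl. Without the 2 libraries that stood apart, that change was 0.10 for Fasl and the Fasl difference between states was -0.0091. The cause was not tested. No paired analysis was possible for the change between states because batches are nested in state. Depth limits Tnfsf14, Cd70 and Tnfrsf25, which rest on few counts after co-culture.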
